A study of Mus musculus with 18 samples.

Results

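B16 is a melanoma line from the mouse, and the results below compare B16 cells in which Ncor1 was targeted by CRISPR with B16 cells that carried a control guide. The members are the 9 libraries labelled B16, out of 18 in the series; the other 9 come from the mouse liver cancer line Hepa1-6. The control libraries (sgCtrl, n = 3) are labelled wild type, and the 6 others are labelled Ncor1 knockout, 3 from guide sgNcor1-1 and 3 from sgNcor1-2. Polyadenylated RNA was sequenced. The labels do not say whether a guide's cells were a clone or a pool, nor that libraries of 1 group were grown apart. The p-values therefore reflect how far these libraries scatter, and that scatter may be technical. The series title asks about NCOR1 in mismatch repair and checkpoint therapy.

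NCOR1 is a large scaffold protein that brings histone deacetylase 3 to chromatin, together with TBL1X, TBL1XR1 and GPS2. Nuclear receptors without an activating ligand, among them the retinoic acid, thyroid hormone, LXR and PPAR receptors, recruit it and keep their target genes low. It is also known as a brake on inflammatory and interferon-responsive genes in macrophages.

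The libraries held 15663983 to 25263749 counts, with 13982 to 14986 genes detected. All 10 melanocyte markers (among them Mitf, Dct, Tyr and Pmel) exceeded 1 CPM (the count scaled to library size, with TMM factors) in every library, with a summed level of 4908 to 18660 CPM. The 10 hepatocyte markers summed to 1.17 CPM at most and 4 of them, Alb among them, had no count. Keratinocyte markers had no count and immune markers summed to 4.19 CPM at most. Fibroblast markers summed to 12.2 to 39.9 CPM, with 2 of 6 over 1 CPM, and endothelial markers to 1.93 to 8.34 CPM, with overlapping ranges in the 3 groups. 1 library stood apart. On a principal component that took up 48.6% of the variance sgNcor1-1 1 lay at -96.5 and the others between -29.3 and 52.1, and its TMM factor was 0.792 against 0.978 to 1.09. Against sgCtrl 1 its mitochondrially encoded mRNAs had a median log2 ratio of -1.54, its replication-dependent histones 1.04 and its heat shock genes 0.81. The calls and the named genes are therefore given with all 9 libraries and also without sgNcor1-1 1. Libraries with the same replicate number deviated together, and the number is a block in each test.

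Ncor1 itself (chromosome 11, 62315663 to 62457414 in mm10) was measured at 327, 279 and 326 CPM in sgCtrl 1, 2 and 3, at 367, 239 and 296 CPM in sgNcor1-1 and at 353, 237 and 301 CPM in sgNcor1-2. The groups overlapped, and the log2 fold change, by edgeR's quasi-likelihood test, came to -0.08 (SE 0.11, adjusted p = 0.956), and to -0.11 (SE 0.09, adjusted p = 0.592) without sgNcor1-1 1. Its annotation overlaps that of Ttc19. The level of the mRNA thus did not separate the groups. A count over the whole gene does not report on the protein, and the cut sites of the guides are not used here.

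With both guides weighted equally, 48 of 12347 genes passed an adjusted p of 0.05, which is 0.389% of those tested. 14 rose (0.113%) and 34 fell (0.275%), with absolute log2 fold changes from 1.096 to 10.65. Without the replicate block 4 genes passed, all lower. With plain library totals in place of TMM the split was 4 against 24. All 48 had the same sign in all 6 pairs of a knockout and a control library with the same number, a pattern shown by 12.1% of all genes. In 35 of them (8 higher, 27 lower) the 6 knockout libraries did not overlap the 3 controls, against 2.18% of all genes (0.81% higher, 1.37% lower). The 48 were picked from the same values by a test paired on the number, so neither pattern is separate support for them. sgNcor1-1 alone gave 11 calls (0.0891%), 2 higher (0.0162%) and 9 lower (0.0729%). sgNcor1-2 alone gave 22 (0.178%), 5 higher (0.0405%) and 17 lower (0.138%), and 10 of the 48 were called with each guide. The 2 guides compared directly gave 0 calls with edgeR, against 661 genes at an unadjusted p under 0.05, 13 calls with DESeq2 and 0 with limma-voom. The count of 48 rested on single libraries: it was 339 without sgNcor1-1 1, 46 without sgCtrl 1, 34 without sgNcor1-2 1, 23 and 16 without sgNcor1-1 2 and 3, 11 without sgNcor1-2 2, 4 and 2 without sgCtrl 2 and 3, and 1 without sgNcor1-2 3. None of the 48 changed sign in these 9 fits, and 1 of them, Pbxip1, was called in every one.

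**Figure D1:**
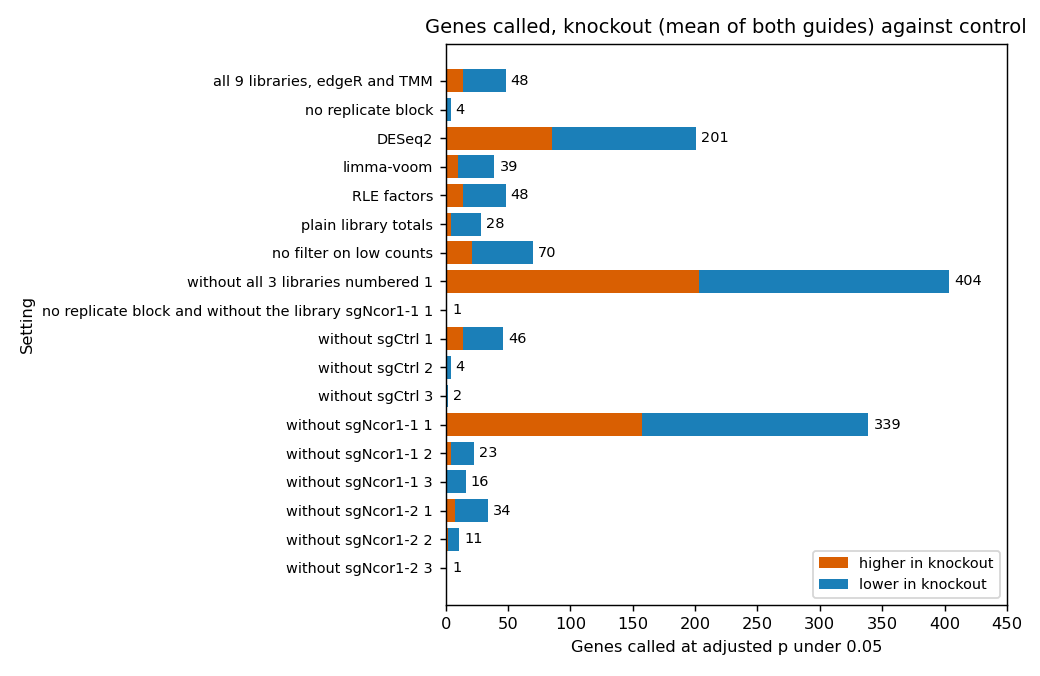
Number of genes called at an adjusted p under 0.05 (horizontal axis) for knockout against control under each setting (vertical axis), split into genes higher and lower in the knockout. The count is 48 with all 9 libraries, 339 without sgNcor1-1 1, and between 1 and 46 when any other library is left out.

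Several genes that control cells expressed were at or near 0 with both guides. Pbxip1, the gene of a partner protein of PBX homeodomain factors (chromosome 3, 89436675 to 89450952), was at 42.6, 22.4 and 41.3 CPM in the controls and at 0.0806 to 0.782 CPM in the 6 knockout libraries. The lowest control was thus above every knockout library, which the rule for naming genes required. The log2 fold change came to -6.43 (SE 0.40, adjusted p = 0.00168), with -6.39 for sgNcor1-1 and -6.47 for sgNcor1-2. It was -6.17 (adjusted p = 8.95e-05) without sgNcor1-1 1, and the adjusted p was 0.043 at most when any library was left out. Tenm3, a teneurin of neuronal adhesion (chromosome 8, 48225665 to 49522824), was at 12.4, 6.93 and 12.6 CPM in the controls and had no count in any of the 6 knockout libraries. Taking 3 counts in the shallowest knockout library as the floor (0.242 CPM), its level in the knockout libraries was at least 44-fold lower. The adjusted p was 0.0138, and the call was lost without sgCtrl 2, sgCtrl 3, sgNcor1-2 2 or sgNcor1-2 3. The nearest tested genes on either side did not follow: Pygo2 and Pmvk beside Pbxip1 had log2 fold changes of -0.07 and 0.08, and Dctd and Aga beside Tenm3 of -0.03 and -0.15, none of them called.

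Among the other named falls, 4 genes of lower expression followed. Naalad2, a dipeptidase gene, was at 13.2, 8.56 and 7.56 CPM in the controls and at 0.159 to 2.05 CPM in the knockout libraries (log2 fold change -4.14, SE 0.46, adjusted p = 0.0111). Sdr42e1, of the short-chain dehydrogenase family, fell from 8.64 ± 1.68 CPM (SD, n = 3) to 0.902 ± 0.522 CPM with sgNcor1-1 and 0.737 ± 0.388 CPM with sgNcor1-2 (-3.53, SE 0.34, adjusted p = 0.00545). Bcas1 fell by 5.51 (SE 0.70, adjusted p = 0.0207) from 2.17 to 9.05 CPM in the controls, with 2 of the 6 knockout libraries at 0. Crtam, an immunoglobulin-superfamily receptor studied in lymphocytes, had log2 -4.53 (SE 0.71, adjusted p = 0.0469) from 4.25 to 6.30 CPM in the controls. In none of these 4 did a knockout library reach the lowest control, as the naming rule required. Without sgNcor1-1 1 their log2 fold changes were -3.78 for Naalad2, -3.38 for Sdr42e1, -5.35 for Bcas1 and -4.78 for Crtam, all called. Every one of them lost its call without sgCtrl 3 and without sgNcor1-2 3.

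The remaining 6 named falls differ in what they encode. Neb, the nebulin of muscle thin filaments, was at 54.1, 15.3 and 23.6 CPM in the controls and at 1.14 to 6.69 CPM in the knockout libraries (log2 fold change -3.04, SE 0.24, adjusted p = 0.0048). Flnc, the actin crosslinker filamin C, was at 20.01, 36.7 and 48.2 CPM against 0.564 to 9.72 CPM (-2.94, SE 0.40, adjusted p = 0.0247). Col12a1, a fibril-associated collagen, went from 7.14 ± 0.93 CPM to 1.38 ± 0.73 and 1.74 ± 1.34 CPM (-2.39, SE 0.32, adjusted p = 0.024) and was the only 1 of 41 matrix genes called with all 9 libraries; the list's median was 0.14. Bscl2, which encodes the lipid droplet protein seipin, fell by 2.43 (SE 0.22, adjusted p = 0.00545). Plppr3, of a phospholipid phosphatase-related family of neurons, fell by 2.43 (SE 0.25, adjusted p = 0.00756), and Tex14, of germ cell bridges, by 2.47 (SE 0.34, adjusted p = 0.0261). Bscl2 overlaps Gng3, and Plppr3 overlaps Ptbp1. Neb, Tex14, Tenm3 and Bcas1 overlap annotated model, non-coding or small RNA genes. These are overlaps of whole gene spans. The strand setting is not stated, and whether reads fall in shared sequence was not examined. Counts of Bscl2 and Plppr3 were not whole in 1 library each, and those of Neb, Tex14, Tenm3 and Bcas1 were whole throughout. None of Neb, Flnc, Col12a1, Bscl2, Plppr3 and Tex14 had a knockout library above its lowest control, as the naming rule required. All 6 were called without sgNcor1-1 1 too, at -3.08 for Neb, -2.67 for Flnc, -2.38 for Col12a1, -2.50 for Bscl2, -2.64 for Plppr3 and -2.44 for Tex14. Without sgNcor1-2 3 all 6 lost their calls, and without sgCtrl 3 Neb alone kept it.

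6 rises met the naming rule. Angptl4, a secreted inhibitor of lipoprotein lipase and a classical PPAR target (chromosome 17, 33774900 to 33781575), was at 4.10, 6.27 and 5.31 CPM in the controls, at 22.3, 36.9 and 51.3 CPM in sgNcor1-1 and at 132, 43.6 and 48.1 CPM in sgNcor1-2. The lowest knockout library, sgNcor1-1 1, was above the highest control, as the naming rule required. The log2 fold change came to 3.30 (SE 0.49, adjusted p = 0.0384, and 0.301 at most when 1 library was left out). Without sgNcor1-1 1 it was 3.48 (adjusted p = 0.0119). Its neighbour Rab11b had 0.45 (SE 0.11, adjusted p = 0.227), and 0.48 (adjusted p = 0.0304) without sgNcor1-1 1. Dnah11, an axonemal dynein heavy chain, was nearly silent in the controls (0.270 to 0.482 CPM) and at 1.69 to 10.3 CPM in the knockout libraries (3.84, SE 0.45, adjusted p = 0.0138), or 4.06 without sgNcor1-1 1. Dnah11 overlaps Cdca7l, and its counts were not whole in any library, so reads shared with other loci enter its level.

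Sv2a, a synaptic vesicle glycoprotein, was at 4.35, 1.39 and 1.35 CPM in the controls and at 8.96 to 23.2 CPM in the knockout libraries (log2 fold change 2.64, SE 0.34, adjusted p = 0.0209). Ptgs1, the constitutive cyclooxygenase, went from 2.28 ± 0.34 CPM to 7.46 ± 0.49 and 9.03 ± 3.17 CPM (1.84, SE 0.28, adjusted p = 0.0414). Slc25a34, a mitochondrial carrier, went from 21.7 ± 7.35 CPM to 71.4 ± 18.4 and 68.9 ± 11.6 CPM (1.73, SE 0.23, adjusted p = 0.0233). Efs, an adaptor of Src-family kinases, went from 6.03 ± 3.46 CPM to 19.8 ± 7.25 and 17.9 ± 5.15 CPM (1.70, SE 0.24, adjusted p = 0.0323). Knockout and control libraries did not overlap in any of these 4 genes, again by the naming rule. Without sgNcor1-1 1 all 4 were called, with 2.57 for Sv2a, 1.81 for Ptgs1, 1.78 for Slc25a34 and 1.72 for Efs. None of the 6 named rises was called without sgCtrl 2, without sgCtrl 3 or without sgNcor1-2 3.

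**Figure D2:**
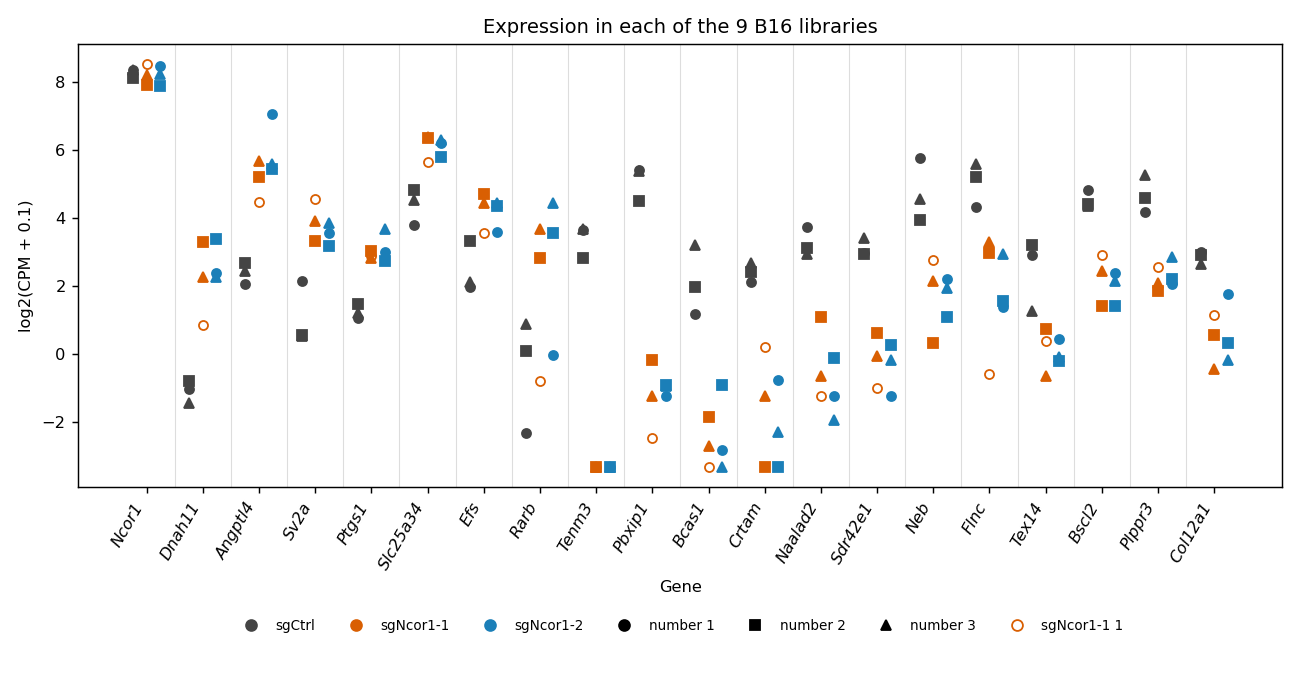
Expression of Ncor1, the named rises, Rarb and the named falls in each B16 library, as log2(CPM + 0.1) (vertical axis) by gene (horizontal axis), with colour for the guide, shape for the replicate number and an open circle for sgNcor1-1 1. Ncor1 overlaps between groups, while Tenm3 is at the bottom of the scale in all 6 knockout libraries and Pbxip1 is at 0.782 CPM or below in them.

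Among genes of nuclear receptor signalling, the receptor gene Rarb rose. Rarb encodes a retinoic acid receptor and is itself a textbook retinoic acid target, through a direct repeat just upstream of its start. It was at 0.0988, 0.965 and 1.76 CPM in sgCtrl 1, 2 and 3, at 0.484, 6.92 and 12.6 CPM in sgNcor1-1 and at 0.891, 11.6 and 21.4 CPM in sgNcor1-2. Knockout libraries were higher than the control of their own number in every case, but both knockout libraries numbered 1 lay within the control range. The annotation of Rarb overlaps those of Gm46442, Gm19061, Tpi-rs9 and Gm18078. As for Dnah11, its counts were not whole in any library, so reads shared with other loci enter its level. The fitted change was 3.16 on the log2 scale (SE 0.26, adjusted p = 0.0048) and 3.18 without sgNcor1-1 1; the call was lost without sgCtrl 2, sgCtrl 3 or sgNcor1-2 3. The other retinoid genes by smallest p were Dhrs3, a retinaldehyde reductase (1.31, adjusted p = 0.137), Stra6 (1.75, adjusted p = 0.306) and Lrat (0.68, adjusted p = 0.74). With all 9 libraries 1 of 14 retinoid genes was called, and without sgNcor1-1 1 there were 2, Rarb and Dhrs3 (1.40, adjusted p = 0.0456). The list's median with all 9 was -0.02 beside 0 over all genes. The 160 bases upstream of the start of the RefSeq transcript shown here (GRCm38.p6, minus strand, chr14:16575477-16575636) hold the pattern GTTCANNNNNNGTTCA, in capitals, whose first base is 52 bases before the start. Either strand was searched from 250 bases before to 50 after each start; 24 of 27025 gene symbols (0.0888%) hold it. The match is a description and not a measured site.
Rarb: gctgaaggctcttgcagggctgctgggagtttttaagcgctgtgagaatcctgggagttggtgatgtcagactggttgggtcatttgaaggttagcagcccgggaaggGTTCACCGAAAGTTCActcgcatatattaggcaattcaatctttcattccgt

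Without sgNcor1-1 1, more genes of this kind passed; 1.25% of all genes were called higher in that fit. Of 32 nuclear receptor genes, Rarb, Rara (log2 fold change 0.64, SE 0.13, adjusted p = 0.0366) and Esr1 (1.82, SE 0.38, adjusted p = 0.0442) rose and 0 fell. Esr1 was low, at 0.741, 1.75 and 1.53 CPM in the controls. It was at 0.564, 5.35 and 8.60 CPM in sgNcor1-1 and at 0.931, 8.30 and 7.58 CPM in sgNcor1-2. Both knockout libraries numbered 1 thus lay within or below its controls. Rara in sgNcor1-1 1 (19.26 CPM) was below the lowest control (19.51 CPM). Of 12 LXR targets, 3 rose: Abca1, the cholesterol exporter (1.36, SE 0.19, adjusted p = 0.0134), Lpcat3, a phospholipid-remodelling acyltransferase (0.60, SE 0.08, adjusted p = 0.01), and Mylip, a ligase that degrades the LDL receptor (0.65, SE 0.14, adjusted p = 0.0465). Abca1 was at 65.4, 43.5 and 55.8 CPM in the controls, at 67.0, 135 and 95.8 CPM in sgNcor1-1 and at 243, 102 and 116 CPM in sgNcor1-2, so all 6 knockout libraries were above the 3 controls. The LXR median was 0.40 with all 9 libraries, where 0 were called, and 0.35 without sgNcor1-1 1. Of 28 PPAR targets and fatty acid oxidation genes, Angptl4 alone was called with all 9 libraries, and 4 rose without sgNcor1-1 1, among them Fabp3, a fatty acid binding protein (0.89, SE 0.14, adjusted p = 0.0174), and Acadl, an acyl-CoA dehydrogenase (0.43, SE 0.09, adjusted p = 0.049). The list's median was 0.25 and 0.23. Tbl1xr1, a subunit of the NCOR1 complex, was the only 1 of its 10 members to rise (0.40, SE 0.09, adjusted p = 0.0496). When any further library was left out as well, 0 to 6 LXR targets and 0 to 7 PPAR targets were called higher and 0 lower. The most in both lists came without sgNcor1-2 2, where 426 of 12517 genes were called higher. The fewest LXR calls came without sgCtrl 2 (28 of 12528 genes higher). The fewest PPAR calls came without sgNcor1-1 2 or 3 (27 of 12900 and 43 of 12893 genes higher). With DESeq2 on the 8 libraries, 5 of 18 LXR targets were called higher and 1 lower. Without the replicate block 0 genes of the nuclear receptor, LXR, retinoid and PPAR lists were called.

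**Figure D3:**
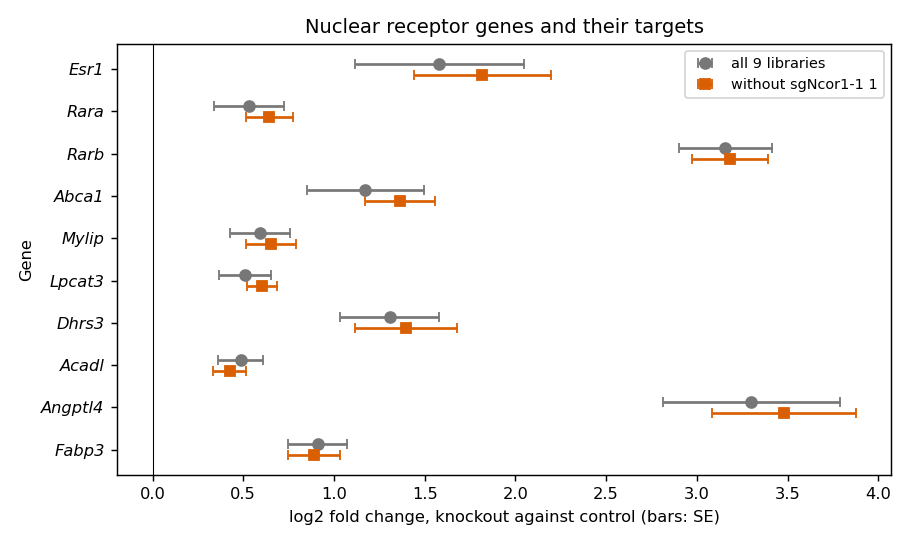
Log2 fold change of knockout against control with its SE (horizontal axis) for 10 nuclear receptor genes and targets of LXR, retinoid and PPAR receptors called in either fit (vertical axis), with all 9 libraries and without sgNcor1-1 1. All lie above 0 in both fits, with Rarb at 3.16 and Angptl4 at 3.30 highest.

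Without sgNcor1-1 1 the comparison held 5 knockout and 3 control libraries and gave 339 calls among 12564 genes (2.7%), 157 higher (1.25%) and 182 lower (1.45%). The 48 genes above were all among them with the same sign, which is 14.2% of the 339, and 14 of the 339 had not passed the filter on low counts with all 9 libraries. sgNcor1-1 alone gave 61 calls (0.486%), 34 higher (0.271%) and 27 lower (0.215%). sgNcor1-2 alone gave 266 (2.12%), 140 higher (1.11%) and 126 lower (1%), and the guides compared directly 0 (457 at an unadjusted p under 0.05). The larger count also rested on single libraries, and without the replicate block it was 1. Left out as well, sgCtrl 2 gave 60 calls, sgCtrl 3 gave 36, sgNcor1-1 2 and 3 gave 58 and 81, sgNcor1-2 3 gave 125 and sgNcor1-2 2 gave 966, while without sgCtrl 1 or sgNcor1-2 1 there were 409 and 414.

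Interferon-stimulated genes made up 21 of the 157 rises. These genes encode antiviral effectors and guanylate-binding proteins and are switched on by interferons through STAT and IRF factors. Of 59 tested, 21 rose and 0 fell, 55 had a log2 fold change above 0, and the median was 0.48 beside -0.01 over all genes. With all 9 libraries 1 of 58, Gbp6, was called (1.76, SE 0.26, adjusted p = 0.0384), 54 were above 0 beside 6085 of 12347 genes, and the median was 0.42. Ifit3, which binds viral RNA complexes, was at 13.8, 24.8 and 16.2 CPM in the controls, at 17.0, 100 and 32.5 CPM in sgNcor1-1 and at 60.9, 85.6 and 52.7 CPM in sgNcor1-2. All knockout libraries other than sgNcor1-1 1 were above the highest control, as the naming rule required. The fitted log2 change was 1.55 (SE 0.31, adjusted p = 0.122) with all 9 libraries and 1.74 (SE 0.19, adjusted p = 0.00535) without sgNcor1-1 1.

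Rsad2, the antiviral radical-SAM enzyme viperin, was at 87.4, 167 and 225 CPM in the controls, at 120, 438 and 440 CPM in sgNcor1-1 and at 239, 345 and 497 CPM in sgNcor1-2 (1.103, SE 0.20, adjusted p = 0.1 with all 9; 1.23, SE 0.12, adjusted p = 0.00206 without sgNcor1-1 1). Tgtp2, an interferon-inducible GTPase, was at 3.95, 8.99 and 3.92 CPM, then 2.18, 37.1 and 12.3 CPM, then 11.7, 29.2 and 15.2 CPM (1.48, adjusted p = 0.367 with all 9; 1.78, SE 0.16, adjusted p = 0.00133 without sgNcor1-1 1). In both genes sgNcor1-1 1 was the lowest knockout library and lay among or below the controls. Isg15, a ubiquitin-like modifier, rose by 0.48 (SE 0.09, adjusted p = 0.0239), Ddx58, the RNA sensor RIG-I, by 0.61 (SE 0.09, adjusted p = 0.01) and Irf7, a factor of the pathway, by 0.71 (SE 0.14, adjusted p = 0.032), all without sgNcor1-1 1. With all 9 libraries these 3 genes had 0.44 (adjusted p = 0.265), 0.49 (adjusted p = 0.484) and 0.65 (adjusted p = 0.264). RSEM shares reads among near-identical genes, so the split between Ifit3 and Ifit3b, whose counts were not whole in any library, is uncertain. The same holds for Oas1a, Oas1g and Trim30a, and counts of Tgtp2 were not whole in 6 libraries. Those of Gbp6 and Gbp7 were not whole in 1 and 2 libraries, and those of Gbp3 and Gbp4 were whole throughout. Of the other named rises, Ifit3b had 1.85 (SE 0.22), Iigp1 1.72 (SE 0.21), both with adjusted p = 0.00535, and Oasl2 1.64 (SE 0.21, adjusted p = 0.00714). With a further library left out 0 were lower. The calls numbered 6 and 7 without sgCtrl 2 and 3, 10 and 11 without sgNcor1-1 2 and 3, and 14 without sgNcor1-2 3. They numbered 16 without sgCtrl 1 or sgNcor1-2 1, and 31 without sgNcor1-2 2, where 426 of 12517 genes were called higher. The median lay between 0.40 and 0.62 in those fits, and without the replicate block it was 0.48 with 0 calls.

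By pair, the median log2 ratio of the 58 genes was -0.26 for sgNcor1-1 1, 0.44 and 0.29 for sgNcor1-1 2 and 3, and 0.74, 0.62 and 0.38 for sgNcor1-2 1, 2 and 3. In sgNcor1-1 1, 34.5% of them exceeded the control of the same number, and in the 5 others 84.5% to 94.8%. The histone, heat shock and mitochondrial levels of sgNcor1-1 1 given above moved with it, and their part in the result was not tested. 0 of 23 genes of MHC class I presentation were called in either fit, with medians of 0.20 and 0.07; B2m had 0.37 (adjusted p = 0.657).

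**Figure D4:**
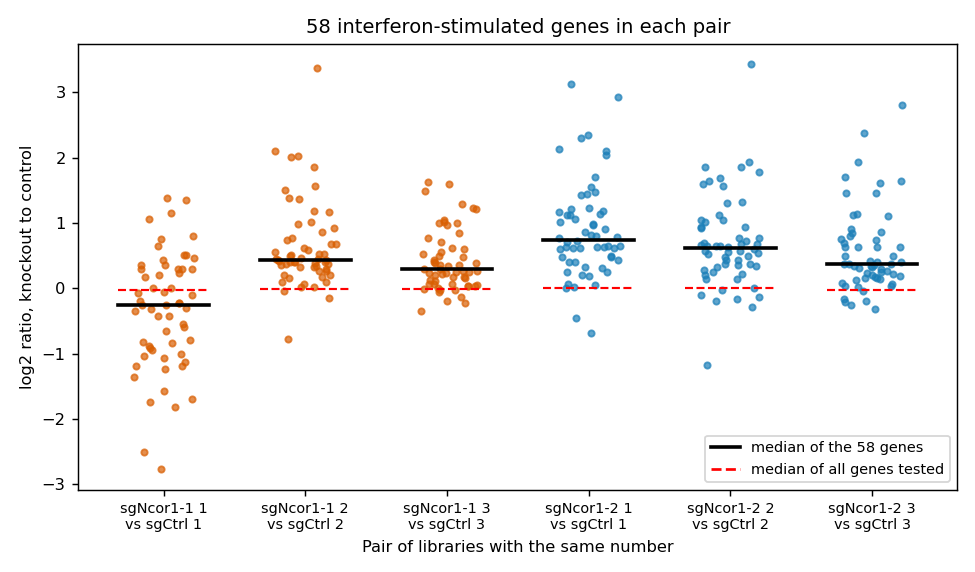
Log2 ratio of knockout to control (vertical axis) for 58 interferon-stimulated genes (points) in each of the 6 pairs of libraries with the same number (horizontal axis), with the median of these genes (black) and of all genes tested (dashed red). The median is -0.26 for sgNcor1-1 1 and 0.29 to 0.74 for the other 5 pairs.

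The promoters of these genes are shown because many hold the core of the interferon-stimulated response element, the site of IRF and STAT complexes. The pattern GAAANNGAAA, on either strand from 250 bases before to 50 after the start, is in 3.99% of 27025 gene symbols and in 3.72% of those tested in B16. It is in 13 of the 18 called interferon-stimulated genes with a promoter entry (72.2%) and in 12 of 25 that were not called (48%). The list holds genes known to respond to interferon, so a share above that of all genes is no separate support for the calls. Called and uncalled genes were not compared by a test, and the matches are a description and not measured sites. Among the other genes called higher without sgNcor1-1 1 the pattern is in 7 of 93 (7.53%), and among those called lower in 9 of 132 (6.82%). The 160 bases before the start are printed for Isg15 (GRCm38.p6, minus strand, chr4:156200819-156200978), Ifit3 (plus strand, chr19:34583369-34583528), Rsad2 (minus strand, chr12:26456453-26456612) and Gbp7 (plus strand, chr3:142530176-142530335), each 5′ to 3′ along the gene, from RefSeq. Capitals mark the pattern. In Isg15 it occurs 3 times with overlap on the gene's strand, and in Ifit3 it occurs 2 times, in Rsad2 and Gbp7 1 time, on the opposite strand.
Isg15: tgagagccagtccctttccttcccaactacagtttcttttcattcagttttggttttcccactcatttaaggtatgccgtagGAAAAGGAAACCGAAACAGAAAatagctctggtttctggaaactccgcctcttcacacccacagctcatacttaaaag
Ifit3: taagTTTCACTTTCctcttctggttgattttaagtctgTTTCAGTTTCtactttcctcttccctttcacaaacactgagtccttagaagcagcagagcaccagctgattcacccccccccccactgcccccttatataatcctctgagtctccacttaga
Rsad2: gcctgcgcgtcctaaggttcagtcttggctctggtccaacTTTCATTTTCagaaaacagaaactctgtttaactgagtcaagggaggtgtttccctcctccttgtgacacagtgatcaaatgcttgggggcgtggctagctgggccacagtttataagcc
Gbp7: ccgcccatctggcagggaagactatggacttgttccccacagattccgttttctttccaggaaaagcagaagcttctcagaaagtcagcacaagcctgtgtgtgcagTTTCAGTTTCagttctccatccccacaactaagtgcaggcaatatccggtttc

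Other rises without sgNcor1-1 1 that met the naming rule were Fetub, a secreted fetuin (0.135 to 1.15 CPM in the controls, 3.31 to 18.5 CPM in all 6 knockout libraries; 3.72, SE 0.57, adjusted p = 0.0194), H2-DMb1, of MHC class II peptide loading (1.66, SE 0.32, adjusted p = 0.0377), and Hoxc6, a homeobox gene (1.57, SE 0.29, adjusted p = 0.029). Among 42 matrix genes Fn1, fibronectin (0.91, SE 0.13, adjusted p = 0.01), and Thbs2, a thrombospondin (2.08, SE 0.28, adjusted p = 0.01), rose while Fbln2, a fibulin, fell by 1.24 (SE 0.20, adjusted p = 0.016). The named falls were Inpp1, an inositol phosphatase (-1.80, SE 0.32, adjusted p = 0.0266), Plp2 (-1.19, SE 0.13, adjusted p = 0.0027), Rab11fip5 (-1.18, SE 0.19, adjusted p = 0.0188), Klhl29 (-1.10, SE 0.16, adjusted p = 0.012), Tarsl2 (-1.04, SE 0.22, adjusted p = 0.0461), Fez1 (-0.96, SE 0.13, adjusted p = 0.01), Baiap2 (-0.86, SE 0.18, adjusted p = 0.0428) and Sv2b, a synaptic vesicle glycoprotein like Sv2a (-0.85, SE 0.14, adjusted p = 0.0188). With all 9 libraries these 8 had adjusted p from 0.0897 for Inpp1 (-2.01) to 0.829 for Baiap2 (-0.50), and Fetub had 3.60 (adjusted p = 0.0865). Of these 8, Baiap2 was higher in sgNcor1-1 1 than in any control, at 32.7 CPM against 13.3 to 22.6 CPM.

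Signalling and adhesion genes were called in both directions. Of 46 genes of teneurins and axon guidance, Nrp2, a semaphorin and VEGF receptor, rose by 1.096 (SE 0.13, adjusted p = 0.0148), while Tenm3 and Sema6d (-2.03, SE 0.29, adjusted p = 0.0323) fell; the list's median was -0.18. Icam1, an adhesion ligand of leukocyte integrins and NF-kB target, was at 27.1, 37.1 and 45.6 CPM in the controls and at 7.33 to 18.0 CPM in the knockout libraries (-1.86, SE 0.24, adjusted p = 0.0233), and was the only 1 of 18 NF-kB targets called. Icam1 counts were not whole in any library, so reads shared with other loci enter them. Tubb3, a neuronal tubulin, fell by 1.19 (SE 0.16, adjusted p = 0.026), although sgNcor1-1 1 and sgNcor1-2 1, at 129 and 68.6 CPM, lay within the controls (61.9 to 169 CPM). Ppm1h, a protein phosphatase, was at 267, 269 and 305 CPM in the controls and at 105 to 155 CPM in the knockout libraries (-1.16, SE 0.10, adjusted p = 0.00545). Kitl, the ligand of the melanocyte receptor KIT, fell by 2.87 (SE 0.26, adjusted p = 0.00545) and was named after its values were seen. Its level in sgNcor1-1 1, 7.01 CPM, was above the lowest control (6.69 CPM). Nrp2 in sgNcor1-1 1 and sgNcor1-2 1 (43.0 and 45.3 CPM) lay within the controls (24.5 to 48.8 CPM). So did Sema6d in sgNcor1-2 2 (6.99 CPM, controls 4.89 to 15.8 CPM). Without sgNcor1-1 1 the changes were 1.104 for Nrp2, -1.94 for Sema6d, -1.85 for Icam1, -1.33 for Tubb3, -1.15 for Ppm1h and -2.86 for Kitl, all called. Each of these calls was lost without sgCtrl 2, without sgCtrl 3 and without sgNcor1-2 3. 0 of 25 melanocyte identity genes were called, with a median of 0.13.

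The DNA repair and cell cycle lists had fitted medians slightly below 0, but not in every pair. In the pair of sgNcor1-2 2 the median log2 ratio was 0.02 for core mismatch repair and 0.23 for replication. For mitosis it was -0.15 there, and every other pair was below 0 in these 3 lists. Core mismatch repair was lowest in the outlying library sgNcor1-1 1, at -0.79. None of 9 core mismatch repair genes was called in either fit (all 9 below 0 with all 9 libraries, median -0.20): Msh6 was at 109.5 ± 0.458 CPM in the controls and at 94.9 ± 2.72 and 95.4 ± 7.66 CPM with the guides (-0.20, SE 0.10, adjusted p = 0.661). Pms2 had -0.16 (SE 0.14, adjusted p = 0.887) and Pms1 -0.33 (SE 0.19, adjusted p = 0.759). Without sgNcor1-1 1 the median was -0.21, with -0.22 for Msh6 (adjusted p = 0.221), -0.25 for Pms2 (adjusted p = 0.224) and -0.21 for Pms1 (adjusted p = 0.404). Of 40 genes of mitosis 0 were above 0 and 0 were called with all 9 libraries (median -0.28). Without sgNcor1-1 1, Mad2l1 (-0.71, SE 0.10, adjusted p = 0.0109), Kif4 (-0.61, SE 0.11, adjusted p = 0.0239) and Cdca3 (-0.49, SE 0.10, adjusted p = 0.0439) fell. Of 40 genes of replication, Rrm2 (-0.49, SE 0.09, adjusted p = 0.0258) and Pola1 (-0.67, SE 0.13, adjusted p = 0.0376) fell there, and the median was -0.21 with all 9 libraries. In that fit 1.45% of all genes were called lower. With a further library left out, 0 to 2 mitosis genes and 0 or 1 replication genes were called lower in 7 of the 8 fits. Without sgNcor1-2 2 the numbers were 24 and 23, in a fit that called 540 of 12517 genes lower. Both lists had 0 calls without the replicate block. The medians of the mitosis and replication lists without sgNcor1-1 1 were -0.31 and -0.35. Mad2l1 and Cdca3 lie on chromosome 6, Kif4 and Pola1 on X. In each list 4 members lie in the 3 low regions described below. Outside those regions the medians with all 9 libraries were -0.27 for mitosis and -0.21 for replication.

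Chromosome 6 and most of X lay lower as a whole; these regions were singled out after their values were seen. Over the 513 genes of chromosome 6 with at least 5 CPM, the median log2 fold change was -0.20, with 12.7% of genes above 0. The 17 other autosomes besides chromosome 10 had medians from -0.03 to 0.04, and 43.7% to 60.6% of genes above 0. In the 6 pairs the median of chromosome 6 was -0.17, -0.22 and -0.20 for sgNcor1-1 and -0.19, -0.22 and -0.20 for sgNcor1-2, while the controls differed from each other there by 0.03, -0.02 and -0.06. Every one of its 12 stretches of 10 Mb with at least 20 such genes had a median between -0.25 and -0.14.

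On X the median was -0.21, and it came from the first 110 Mb, where 203 genes had a median of -0.29 and 7.9% were above 0; the 100 genes beyond had a median of 0.00. The pairs there spread more, with 0.00, -0.49 and -0.22 for sgNcor1-1 and -0.19, -0.54 and -0.27 for sgNcor1-2, and the controls themselves differed, sgCtrl 2 and sgCtrl 3 standing at -0.62 and -0.81 relative to sgCtrl 1 (log2). Of the 6 pairs, 5 lay below 0. A pair takes out only what libraries of 1 number share, and the labels do not say what the number marks. In numbers 1, 2 and 3 the median of sgNcor1-1 over these genes exceeded that of sgNcor1-2 by 0.22, 0.03 and 0.06. Whether the lower level of X goes with the knockout was not tested. Without sgNcor1-1 1 the median was -0.21 on chromosome 6 and -0.34 over these genes of X. On chromosome 10, the 270 genes beyond 80 Mb had a median of -0.15, with pairs from -0.30 to -0.02, and the 253 genes before it 0.03.

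Together these 3 regions held 1178 of the 12322 tested genes with a position. Of the 48 calls, 7 lower (0.594% of their genes) and 1 higher (0.0849%) lay in them. Elsewhere 27 genes were lower (0.242%) and 13 higher (0.117%). The lower ones in the 3 regions included Flnc, Ppm1h, Kitl and Aldh1l2, a mitochondrial folate enzyme. Without sgNcor1-1 1, 74 of the regions' genes were called lower (6.28%) and 6 higher (0.509%), against 95 lower (0.852%) and 149 higher (1.34%) of 11144 elsewhere. The 21 interferon-stimulated genes lie elsewhere except Samd9l, on chromosome 6. No DNA measurement was analysed here.

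**Figure D5:**
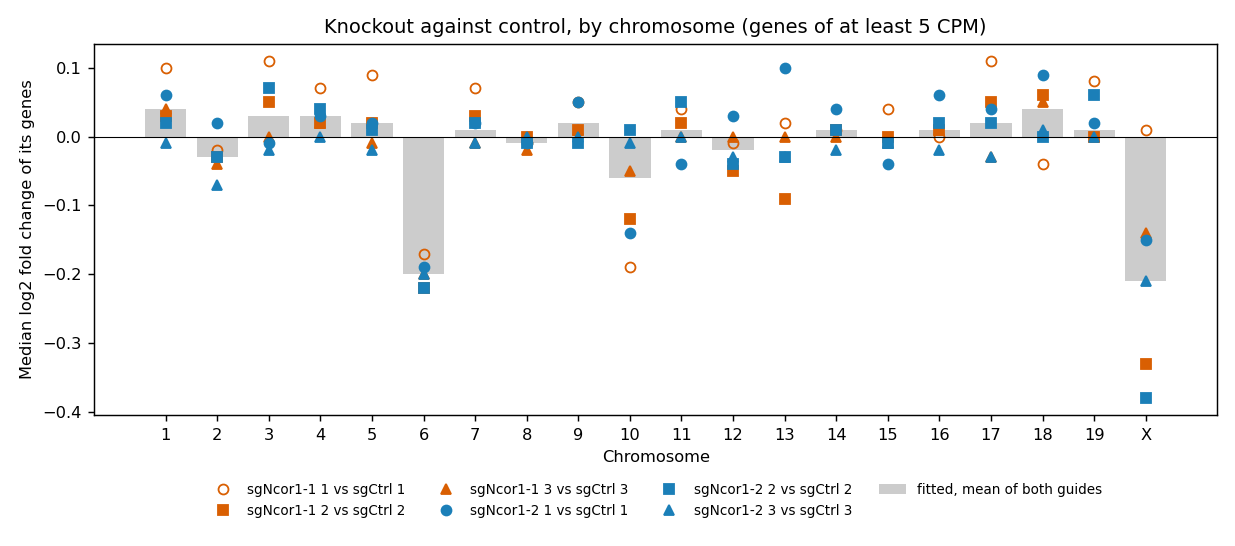
Median log2 fold change of the genes of each chromosome with at least 5 CPM (vertical axis) by chromosome (horizontal axis), with bars for the fit of both guides and points for the 6 pairs of libraries with the same number. Chromosome 6 lies between -0.17 and -0.22 in all 6 pairs, while the pairs of X run from -0.38 to 0.01.

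The effect in B16 was set beside that in Hepa1-6 by a direct test of the difference in 1 fit of all 18 libraries. It passed for 236 of 14044 genes (1.68%), 139 higher in B16 (0.99%) and 97 lower (0.691%), and for 25 of the 48 genes called in B16. Nrp2 was called in both lines with opposite signs, 1.09 in B16 and -2.22 in Hepa1-6 (adjusted p = 8.98e-06), a difference of 3.31 (SE 0.25, adjusted p = 4.87e-06). Sv2a fell in Hepa1-6 from a low level, 2.37 CPM in the controls and 0.977 CPM in the knockout libraries (-1.29, adjusted p = 0.0286). The difference was 3.93 (SE 0.43, adjusted p = 0.000293). Pbxip1 was at 23.03 CPM in the Hepa1-6 controls and 18.9 CPM in the knockout libraries, with a difference of -6.03 (SE 0.56, adjusted p = 4.46e-05), and Angptl4 at 12.3 and 15.4 CPM, with a difference of 3.08 (SE 0.51, adjusted p = 0.00728). For Dnah11, which rose in Hepa1-6 too (1.93, adjusted p = 0.0488), the difference did not pass (1.91, SE 0.73, adjusted p = 0.203). Its Hepa1-6 levels were near the floor, at 0.203 CPM in the controls and 0.787 CPM in the knockout libraries. Ncor1 fell in Hepa1-6 by 0.63 (SE 0.13, adjusted p = 0.0166), while the difference from B16 did not pass (0.55, SE 0.19, adjusted p = 0.153). The count of differences ranged from 62 without sgCtrl 3 to 582 without sgNcor1-1 1.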

How the data were processed

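RNA sequencing of the B16 libraries was analysed from the authors' deposited gene table, which holds expected counts. Per the submitters' processing notes, FastQC 0.12.1, Trim Galore 0.6.7, Bowtie2 2.2.5, RSEM 1.2.8 and the build mm10 were used; the gene annotation and strand setting are not given in the sources used here. RSEM shares multi-mapping reads, and 7.19% of the deposited values were not whole; all were rounded. Of 32015 gene symbols, 99% had a position in the RefSeq table of the same build (GRCm38.p6).

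Genes passing filterByExpr were tested with the quasi-likelihood test of edgeR 4.0.16 (R 4.3.3, TMM, robust) with a mean per guide and the replicate number as a block; the contrast was the mean of both guides minus control. Benjamini-Hochberg adjustment ran over all genes tested, and adjusted p under 0.05 was called. Levels are CPM, means ± SD over 3 libraries. Floors and counts of 0 cover counting error only. The script was tested on simulated data. Alternatives used DESeq2 1.42.0, limma 3.58.1 (voom), other scaling, no filter, no block and each library left out.

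Deviations from the group means correlated at 0.50 to 0.74 in the 9 pairs of libraries with the same number, so libraries were treated as paired by number. The 18 other pairs gave -0.54 to -0.07. Deviations within a group sum to 0, so these negative values largely follow from the positive ones and are not separate evidence. The numbers come from the labels, which do not say what they mark. The least different pair of libraries (sgNcor1-1 3 and sgNcor1-2 3) had a chi-square of 6.61 per degree of freedom, so none was counted as a repeat.

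Named genes were up to 12 rises and 12 falls of largest change called with all 9 libraries, up to 8 each way called only without sgNcor1-1 1, with at least 5 CPM, no overlap of groups and a gene name; up to 4 members of a list by smallest p, core mismatch repair genes, and Ncor1. Results for a few genes of these lists are not reported here. 6 rises and 21 falls were eligible. Members and lists were chosen with earlier results of these data known. Of 49 lists, those with calls or of interest to the study are printed. Promoter sequences come from RefSeq, GRCm38.p6.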

Additional observations from a re-analysis of the deposited data

Results flagged for a closer look

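25 of the 48 genes called in B16 were marked because the knockout effect in B16 differed from that in Hepa1-6 by the test of the difference itself (edgeR, adjusted p under 0.05 over 14044 genes). All values are differences in log2 fold change, B16 minus Hepa1-6, over 9 libraries a line. Among genes higher in the B16 knockout, the differences were Sv2a 3.93, Nrp2 3.31, Angptl4 3.08, Gbp6 2.17, Ptgs1 1.73 and Lhfpl2 1.63. Among genes lower in it, the differences were Neb -2.42, Flnc -2.62, Col12a1 -2.17, Icam1 -1.59, Bscl2 -2.15 and Plppr3 -2.94. The nearly silenced genes had Pbxip1 -6.03, Bcas1 -5.72, Zfp941 -4.74 and Tvp23a -3.20. Tenm3 had -11.42, a fitted value that depends on the prior count since no B16 knockout library holds a count. Secreted factors, transporters and others had Kitl -2.36, Clu -1.53, Slco2a1 -3.47, Slc47a1 -3.18, Ptgr1 -1.37, Hacd4 -2.21, Samd5 -2.44 and Fsd1l -2.40. Both lines share no library, and their 2 deposited tables were fitted together. Groups of 3 libraries were not tested for single outlying values.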

How the results depend on the processing

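Counts of genes called (knockout with both guides, sgNcor1-1, sgNcor1-2, difference between lines; 48, 11, 22 and 236 as reported) moved as follows. Without the replicate block they were 4, 1, 1 and 25, and with no replicate block and without sgNcor1-1 1 they were 1, 1, 1 and 30; most calls were thus made only with the block that pairs libraries by number. DESeq2 gave 201, 147 and 154, with 13 between the guides and 754 between lines. Plain library totals gave 28 and, for sgNcor1-2, 9. Without the filter on low counts 30 were called for sgNcor1-1 and 41 for sgNcor1-2. Without all 3 libraries numbered 1 the counts were 404, 167 and 291. Leaving out each library in turn gave 1 to 339, 0 to 61, 0 to 266 and 62 to 582, and 0 between the guides. Of the 48 genes, 47 were called by DESeq2, 37 by limma-voom, 48 with RLE factors and 28 with plain library totals; none changed sign in any setting.

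For the 339 genes called without sgNcor1-1 1, the alternatives were chosen after seeing the data. DESeq2 gave 645, no block gave 1, and leaving out each further library gave 36 to 966 (60 without sgCtrl 2, 58 and 81 without sgNcor1-1 2 and 3, 125 without sgNcor1-2 3); limma-voom, RLE factors, plain totals and no filter gave 345, 333, 330 and 478. The cause of these shifts was not tested. Among named genes, Ncor1 turned positive at 0.01 without sgCtrl 2 and ran from -0.17 to 0.01 over all single-library omissions. With 3 libraries a guide, 2 when sgNcor1-1 1 is left out, genes near 1 CPM rest on few counts.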
